A study of Homo sapiens with 4 samples.

Results

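Knockdown of MET was examined in Hs746T, an established gastric carcinoma cell line that, per the study, carries a MET mutation that skips exon 14 as well as an amplification of the gene. Of the 4 single-colour Agilent arrays of the series, the 2 described here hold total RNA of Hs746T cells transfected with a MET siRNA (the array labelled MET siRNA) and of cells transfected with a scrambled siRNA (sc siRNA). Transfection was by Lipofectamine, cells were kept in DMEM with fetal bovine serum, and they were harvested 48 h after transfection. The other 2 arrays hold cells given DMSO or PHA665752, a small-molecule inhibitor of the MET kinase, and are used only for comparison. Each condition has 1 array, so no value below has a replicate error, no test between conditions was made, and the small number of arrays limits the precision. A single MET siRNA was profiled, so the loss of MET and any effect of that siRNA's own sequence cannot be told apart.

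MET is the receptor for hepatocyte growth factor. Once its kinase is active, it docks the adaptors GAB1 and GRB2 and passes the signal to the RAS and ERK kinases, to PI3K and AKT, and to STAT3. ERK switches on a set of transcription factors together with its own inhibitors, among them the DUSP phosphatases and Sprouty proteins. AKT holds FOXO transcription factors out of the nucleus. In gastric tumours, amplification of MET or loss of exon 14, which carries a docking site for the ubiquitin ligase CBL, can keep the receptor active. An siRNA lowers the transcript itself, whereas PHA665752 blocks the kinase activity of the receptor.

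Values are the processed signal of a spot, an intensity after background subtraction, and ratios are log2 differences after the 75th percentile of each array was subtracted. A ratio was taken where a probe was marked as well above background on both arrays, and the brightest such probe stood for its gene. The arrays had 34127 probes, of which 68.2% were well above background in the control and 61.1% after knockdown. Probes left without a usable spot, 176 in the control and 1573 after knockdown, count here as not well above background. A ratio was available for 20461 probes and for 13369 genes. Spots marked as outliers, which were left out, made up 1.69% of spots in the control and 5.58% after knockdown, most of the latter in a single patch of the array. In that patch the 449 unmarked probes had a median log2 ratio of 0.017, and 1.78% of them were past 2-fold, against 1.42% over the array. Probes spotted 10 times gave a spot noise of 0.076 (SD) for a log2 ratio, which does not include differences between cultures. Of 20 epithelial and gastric markers, 11 had a ratio, among them KRT18 (26490 with sc siRNA, 23372 with MET siRNA) and CLDN4 (73845 and 63624). CDH1, the E-cadherin gene, was at 13.1 in the control, marked as well above background, and at 10.4 after knockdown, not so marked. The others without a ratio were CDX2, CLDN18, CLDN3, GKN1, GRHL2, KRT20, MUC5AC and PGC. Of 12 mesenchymal markers, 10 had a ratio, including CDH2 and ZEB1 but neither VIM nor TWIST2. Of 15 leukocyte and endothelial markers, 8 had a ratio, with a median of -0.03. CD68 was at 11833 and 12170, CD8A at 177 and 197, CD14 at 122 and 121 and CD3D at 24.8 and 24.0, while CD3E, MS4A1, NKG7 and LYZ had no ratio. VWF was at 36 and 81 (log2 ratio 1.13, or 0.55 with normexp).

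MET was the gene with the largest fall among the 11005 genes with a mean signal of at least 100. The processed signal of its probe (A_23_P359245, designed to NM_000245) was 190010.0 in the scrambled control (SD between 9 usable spots 0.027 on the log2 scale) and 77854 after knockdown (SD between 10 usable spots 0.064), which is a log2 ratio of -1.33. The transcript was thus still well above background after knockdown. With DMSO and PHA665752 the signals were 221451 and 100492, a log2 ratio of -0.93. The genes beside MET on chromosome 7, which the amplification could include, were all within 2-fold. CAV1 was at 200278 and 219298 (log2 ratio 0.08), CAPZA2 at 24875 and 23668 (-0.12), ST7 at 4310 and 3992 (-0.16), and the 10 neighbours had a median of 0.06. The list of MET with its receptor partners, adaptors and phosphatases had 27 measured genes, and MET was the only one past 2-fold. GAB1, the docking adaptor, was at 0.27, GRB2 at -0.25, CBL at -0.12 and PTPN11, the SHP2 phosphatase, at -0.41. The largest positive value of that list was 0.50 in MST1, which encodes the ligand of the related receptor RON.

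Few transcripts were past 2-fold after MET knockdown. Of the 20461 probes, 234 (1.14%) were more than 2-fold higher and 57 (0.279%) more than 2-fold lower, so 80.4% of those past 2-fold were higher. When each array was instead scaled to the median of only those probes that it marked as well above background, 118 probes were higher and 242 lower, 32.8% higher, and the median of all genes moved from -0.014 to -0.314. Those medians are over unlike probe sets, since 1744 probes were so marked in the control only and 270 after knockdown only. Over the 20461 probes marked on both arrays the median log2 ratio was -0.022 before that scaling. The medians of gene lists below are log2 ratios as measured, to be read against the all-gene median of -0.014, and that other scaling moves them by as much as it moves all genes. Of the 13369 genes, 166 (1.24%) were higher and 35 (0.262%) lower, and 93.3% were within 1.5-fold. As the plot of ratios against signal shows, the ratios spread most among dim probes. The share past 2-fold was 4.65% at mean signals under 50, 1.65% between 100 and 300, and 0.145% at 3000 and over. All 15 genes past 4-fold, 13 higher and 2 lower, had mean signals between 25.0 and 96.6, below the level of 100 set for ranking genes. For a gene with a second probe the difference between the probes had a median of 0.106. A second probe had the same sign in 15 of 16 higher genes and in 3 of 5 lower genes, AREG, KANK1 and SPRY4 but neither CCDC33 nor FRMPD4.

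**Figure D1:**
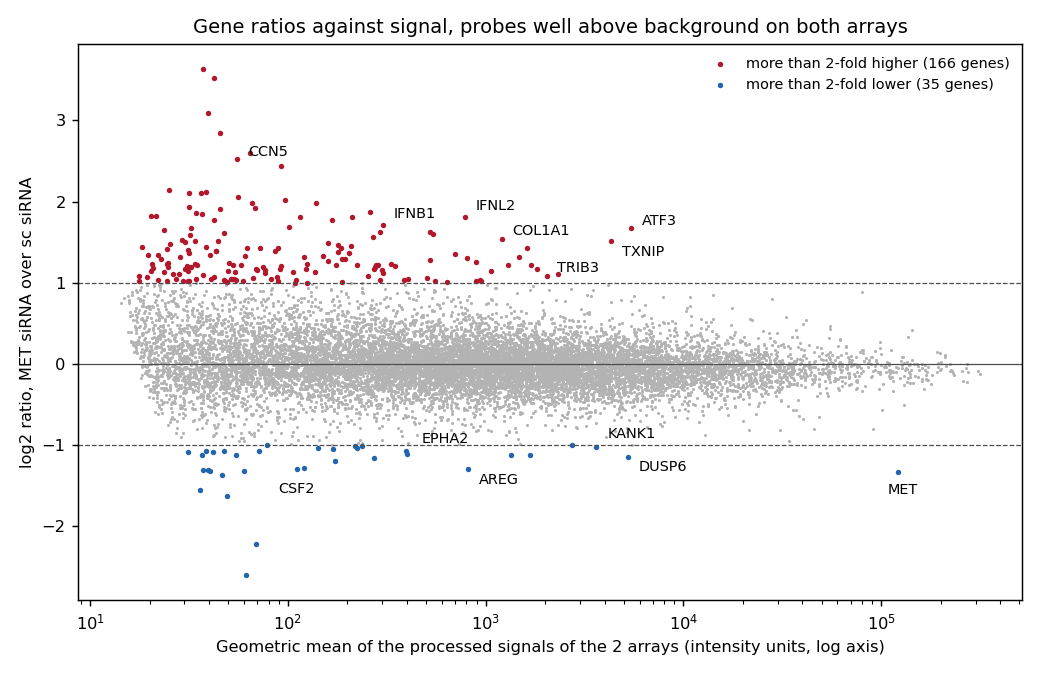
Log2 ratio of MET siRNA over sc siRNA (vertical) against the geometric mean of the processed signals (intensity units, log axis), 1 point per gene well above background on both arrays. Dashed lines mark 2-fold. The 166 higher genes outnumber the 35 lower ones mostly at low signal, and MET is the gene past 2-fold with the highest mean signal.

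**Figure D2:**
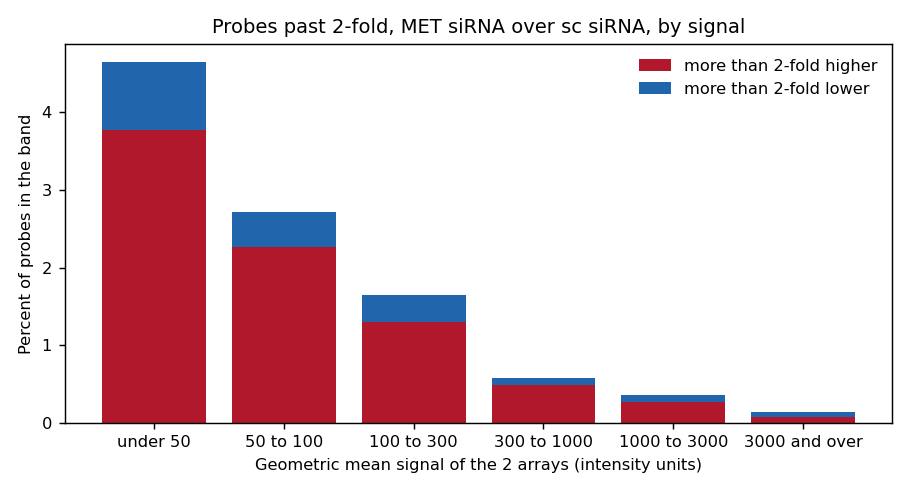
Percent of probes more than 2-fold higher (red) or lower (blue) with MET siRNA, stacked, in bands of geometric mean signal (intensity units). The share past 2-fold goes from 4.65% in the dimmest band to 0.145% in the brightest.

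Of the 29 gene lists, the output of the ERK pathway and its negative feedback had the lowest median. Of 27 measured genes, 21 had ratios below 0 (52.4% of all genes did). In all, 11 were more than 1.5-fold lower (2.24% of all genes) and 3 more than 2-fold lower (0.262%). With normexp 1 of the 27 was more than 2-fold lower, DUSP6 at -1.19, with SPRY4 at -0.93 and EPHA2 at -0.90. None was more than 1.5-fold higher (4.47% of all genes). The median was -0.51, or -0.49 relative to all genes. DUSP6, the phosphatase that dephosphorylates ERK, went from 7699 to 3597 (log2 ratio -1.14). SPRY4, an inhibitor of receptor signalling to RAS, went from 399 to 185 (-1.16), and its second, dimmer probe from 43.9 to 30.5 (-0.57). EPHA2, an ephrin receptor, went from 578 to 278 (-1.10). The next members of the list were within 2-fold. DUSP5, a nuclear ERK phosphatase, was at 17198 and 9689 (-0.87), SPRY2 at 6792 and 3933 (-0.84), and FOSL1, a subunit of the AP-1 factor, at 6712 and 4010 (-0.79). The ETS factors ETV1, ETV5 and ETV4 were at -0.73, -0.66 and -0.64, MYC was at 11336 and 7897 (-0.57), and CCND1, the cyclin of the G1 phase, at 1813 and 1620 (-0.21). Only 6 of the 27 had ratios above 0. They included some immediate early genes, with FOS at 1234 and 1708 (0.42), FOSB at 0.44, JUNB at 0.43 and EGR1 at 0.08. With PHA665752 the same list had a median of -1.25, with SPRY4 at -4.24, DUSP6 at -3.27, EPHA2 at -3.36 and EGR1 at 2.94.

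Among ligands and receptors of the EGF family, AREG, the gene of amphiregulin, was past 2-fold. Its signal went from 1250 to 527 (log2 ratio -1.29), and its second probe gave -1.27. The other ligands were closer to 0, with HBEGF at -0.38, EREG at -0.23, TGFA at -0.18 and NRG1 at -0.09. ERRFI1, a feedback inhibitor of EGFR, was at 12874 and 8368 (-0.67), and EGFR itself was at 994 and 879 (-0.23).

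The promoters of 17 named genes were searched for short transcription factor motifs on both strands, in RefSeq windows of GRCh38.p14 from 250 bases before to 50 after the start of the gene. The searched letters were TGANTCA (AP-1), TGACGTCA (cyclic AMP response element, CRE), CCGGAA (ETS), GGAATG (TEAD), GTCTAGAC (SMAD palindrome), GGCGCC (SMAD, GC-rich), TGATGNAA (ATF4 element), GAAA followed by any 2 bases and GAAA (IRF pair) and TGTTTAC (FOXO), of which the last 3 were added after values were seen. The CRE was found in 2 of the 17, EPHA2 and AREG, and in 1.98% of the 27305 promoters of the table. A match is a description of the letters and not a measured binding site. These 2 promoters are printed because both genes were past 2-fold lower and share the element, a choice made after the matches were seen. Capitals mark every match, here the CRE at -51 in EPHA2 and at -65 in AREG, a TEAD match at -73 in EPHA2, and ETS and SMAD GC-rich matches at -236 and -97 in AREG. They lie at chr1:16156020-16156319 (EPHA2, minus strand) and chr4:74444886-74445185 (AREG, plus strand).
EPHA2: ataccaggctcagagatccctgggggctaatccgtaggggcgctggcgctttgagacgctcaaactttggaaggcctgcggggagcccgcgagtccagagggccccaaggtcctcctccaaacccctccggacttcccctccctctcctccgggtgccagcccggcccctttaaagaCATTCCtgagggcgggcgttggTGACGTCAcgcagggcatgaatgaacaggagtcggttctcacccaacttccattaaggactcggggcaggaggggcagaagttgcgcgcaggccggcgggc
AREG: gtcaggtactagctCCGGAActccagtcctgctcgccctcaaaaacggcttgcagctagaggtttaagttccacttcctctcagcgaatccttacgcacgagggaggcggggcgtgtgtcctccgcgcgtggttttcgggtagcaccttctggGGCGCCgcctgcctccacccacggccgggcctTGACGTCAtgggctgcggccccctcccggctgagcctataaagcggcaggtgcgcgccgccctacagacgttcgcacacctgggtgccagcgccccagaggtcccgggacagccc

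Secreted signals and their receptors were moved in both directions. Of 20 measured chemokines, cytokines and receptors, 4 were more than 2-fold lower (0.262% of all genes) and 2 more than 2-fold higher (1.24% of all genes), and the median was 0.01. With normexp, 1 was lower and 1 higher. CSF2, the gene of GM-CSF, went from 171 to 72 (log2 ratio -1.29), CCL20, which attracts cells bearing CCR6, from 240.1 to 120.3 (-1.04), and IL7R, the receptor for interleukin 7, from 2425 to 1154 (-1.12). CCL3 went from 186 to 79 (-1.29), but its probe may share sequence with the near-identical CCL3L genes. The higher members were IL6, from 144 to 347 (1.22, or 0.97 with normexp), and CXCL10, an interferon-inducible chemokine, from 111 to 307 (1.42, and 1.35 at its second probe). CXCL8 was at 158 and 152 (-0.10) and CXCL1 at 3206 and 4200 (0.34). IL7R, CCL3 and IL6 had log2 ratios of 1.44, 1.69 and 2.89 for sc siRNA over DMSO, a comparison that uses the same sc siRNA array, and the DMSO signal of CXCL10 was 2.4, not well above background.

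Integrins, proteases and the plasminogen system were mostly lower without reaching 2-fold. Of 26 measured genes, 20 had ratios below 0 (52.4% of all genes), 5 were more than 1.5-fold lower (2.24%) and 1 more than 1.5-fold higher (4.47%), with a median of -0.26 (-0.25 relative to all genes). ITGA2, the collagen-binding integrin subunit, was at 233 and 120.1 (log2 ratio -0.9998). MMP1, a collagenase, was at 59419 and 35114 (-0.81), MMP3 at 468 and 279 (-0.79), and PLAU, the urokinase gene, at 121059 and 84697 (-0.56). The gene more than 1.5-fold higher was LAMA3, a laminin chain, at 792 and 1429 (0.80). Under PHA665752, MMP1 was at -2.90, ITGA2 at -2.58 and PLAU at -1.77.

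The 15 largest falls among the ranked genes, shown with the 15 largest rises in the plot of signals on both arrays, ran from -1.33 to -1.02. Beside MET and the genes already given, they were ESM1, an endothelial-type proteoglycan gene (564 to 277, -1.07), KRTAP2-3, a keratin-associated protein (1944 to 924, -1.12, of a family of near-identical genes), TMEM156 (316 to 159, -1.04), KANK1, a regulator of actin and focal adhesions (5092 to 2591, -1.02, and -0.88 at a second probe), MOS, a kinase of the oocyte (258 to 117, -1.19), and ALPP, placental alkaline phosphatase (201 to 102, -1.03, which has close paralogs). The 16th, CD86, was at -1.01. With normexp, a background correction that shrinks ratios of dim probes, all 15 stayed below 0, while 6 stayed past 2-fold, namely MET, AREG, DUSP6, IL7R, KANK1 and KRTAP2-3.

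**Figure D3:**
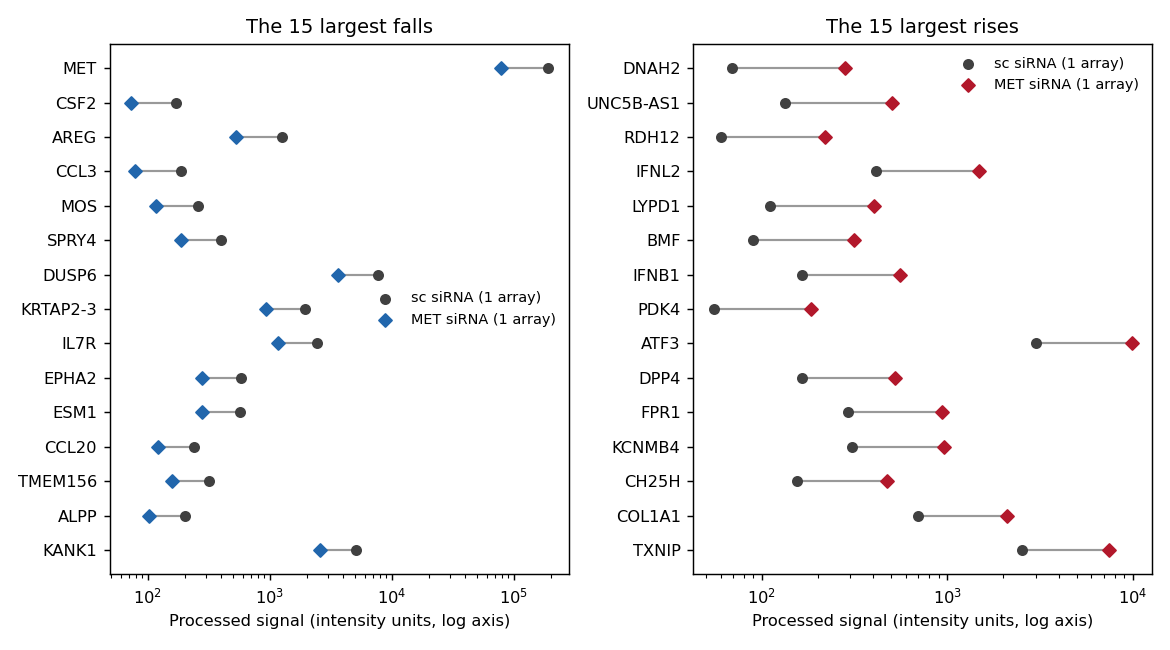
Processed signals (intensity units, log axis) with sc siRNA (circles) and with MET siRNA (diamonds) for the 15 largest falls and the 15 largest rises among genes with a mean signal of at least 100, 1 array each. MET goes from 190010.0 to 77854, and ATF3 goes from 3008 to 9882.

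Higher transcripts included some listed targets that FOXO factors are known to activate when PI3K signalling is low. Neither FOXO nor PI3K activity was measured here. Of 16 measured genes of the PI3K and FOXO response, 3 were more than 2-fold higher (1.24% of all genes) and 6 more than 1.5-fold higher (4.47%). None was more than 1.5-fold lower (2.24% of all genes), and the median was 0.23. TXNIP, which binds thioredoxin and limits glucose uptake, went from 2524 to 7432 (log2 ratio 1.51). PDK4, a kinase that switches off pyruvate dehydrogenase, went from 55 to 184 (1.68), or 0.97 with normexp. INSR, the insulin receptor, went from 197 to 454 (1.16), or 0.85 with normexp. SESN3, FOXO1 and BCL6 were at 0.80, 0.76 and 0.75, while IRS2 was at -0.07, KLF2 at 0.02 and CITED2 at -0.56. With signals of at least 100 on both arrays the median of the list was 0.066 above that of all genes, against 0.24 without that limit. With normexp 1 gene of the list stayed past 2-fold.

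BMF, a pro-apoptotic BH3-only member of the BCL2 family, went from 89 to 316 (log2 ratio 1.78, or 1.25 with normexp). BBC3, the gene of PUMA, was at 1043 and 1971 (0.87), BCL2L11, the gene of BIM, at 1190 and 1594 (0.38), and the survival gene BCL2L1 at 713 and 510 (-0.53). MCL1 was at 0.02, and the median of the 14 measured members of the family was 0.01. Among 23 CDK inhibitors and p53 targets the median was 0.20, with TP53INP1 at 0.77, CDKN1A at -0.01, CDKN1B at 0.28 and PLK2 at -0.77, and none was past 2-fold.

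Genes of the amino acid and endoplasmic reticulum stress response had 3 of 23 measured members more than 2-fold higher (1.24% of all genes) and none lower, with a median of 0.11. With arrays scaled to their probes marked as well above background, 1 of the 23 was past 2-fold. ATF3, a stress-induced transcription factor, went from 3008 to 9882 (log2 ratio 1.67), and 2 more of its probes were at 1.60 and 1.57 while another, from 121 to 128, was at 0.03. CHAC1, an enzyme that degrades glutathione, went from 702 to 1604 (1.14, with a dimmer second probe at 0.79), and TRIB3, a pseudokinase, from 1374 to 3013 (1.09). ASNS, asparagine synthetase, was at 20785 and 37472 (0.80) and DDIT3, the gene of CHOP, at 1190 and 1927 (0.65). ATF4 itself was at 52625 and 54890 (0.01), and the chaperone HSPA5 was at -0.06. CHAC1 and TRIB3 were not higher with PHA665752 (-0.38 and -0.15), whereas ATF3 was at 3.61. Between sc siRNA and DMSO, which share the sc siRNA array with this comparison, CHAC1, TRIB3 and ATF3 were at 1.33, 1.25 and 1.15.

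Genes of the BMP and matrix programmes contained some of the steepest but dimmest rises. SMAD6, an inhibitor of BMP signalling, went from 34 to 135 (log2 ratio 1.92), and ATOH8, a helix-loop-helix factor, from 23 to 90.0 (1.91); with normexp they were at 0.96 and 0.88. ID2 was at 1230 and 2464 (0.96), PMEPA1 at 0.68, ID1 at -0.37 and SMAD7 at 0.22, and 2 of the 20 measured genes of the BMP and TGF-beta response were past 2-fold (1.24% of all genes were higher), with a median of 0.05. With normexp none of the 20 was. COL1A1, a chain of type I collagen, went from 696 to 2098 (1.54), its partner COL1A2 was at 1095 and 1624 (0.52), and FN1, fibronectin, at 770 and 1107 (0.48). In the 18 measured collagen and matrix genes the median was 0.15, and 1 gene was more than 2-fold higher (1.24% of all genes). CCN5, a matricellular protein, went from 23 to 135 (2.52, or 1.16 with normexp), and its family members CCN1 and CCN2 were at 0.13 and -0.26. The 15 measured genes of the CCN family and of YAP or SRF targets had a median of -0.06, with CCN5 alone past 2-fold.

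Receptor tyrosine kinases, through which cells can signal when MET is low, had a median of 0.01 over 20 measured genes. Of these, 2 were more than 2-fold higher (1.24% of all genes) and 1 more than 2-fold lower (0.262%). INSR was past 2-fold higher, as was PDGFRB, a receptor of mesenchymal cells, from 75 to 160.2 (log2 ratio 1.04, or 0.74 with normexp), and EPHA2 was past 2-fold lower. AXL was at 13572 and 14147 (0.01), ERBB2 at 1299 and 1509 (0.17), FGFR1 at -0.18, ROR1 at 2099 and 1430 (-0.60), and KIT, from 97 to 62, at -0.70. The epithelial and gastric markers had a median of -0.03 and the mesenchymal markers of 0.13, with ZEB1 at -0.53, SNAI1 at 0.48 and MUC1, a mucin, at 505 and 895 (0.78).

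**Figure D4:**
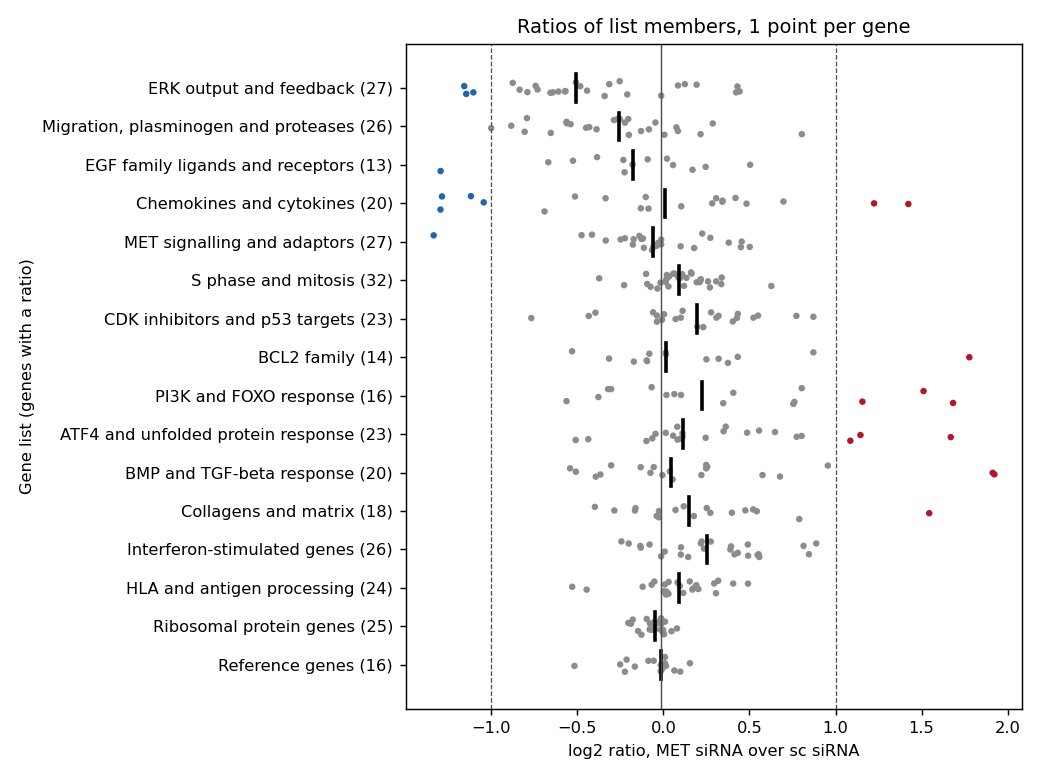
Log2 ratio of MET siRNA over sc siRNA for each measured member of 16 gene lists (points, 1 per gene; red and blue past 2-fold), with the list median as a black bar. The solid vertical line is the median of all genes, -0.014, and dashed lines mark 2-fold. The ERK list has the lowest median, -0.51, and the list of S phase and mitosis genes lies close to the line at 0.09.

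The promoters of 4 of the higher genes are printed because each holds a match to a motif of the FOXO, ATF4, SMAD or IRF factors, again chosen after the matches were seen. The FOXO match is in TXNIP at -124 (minus strand; the motif is in 3.41% of all promoters), the ATF4 element in CHAC1 at -209 (minus strand; 3.67%), the SMAD palindrome in SMAD6 at -12 (0.201%) and the IRF pair in CXCL10 at -221 (3.65%). Other capitals are a GC-rich SMAD match at -22 in CHAC1 and a TEAD match at 5 in CXCL10. Among the other searched promoters, ATF3 also held the ATF4 element and IFNL2 the IRF pair, and no searched motif was found in DUSP6, MET, CSF2, PDK4, BMF, IFNB1 or ATOH8. Coordinates in GRCh38.p14 are chr1:145996530-145996829 (TXNIP, minus strand), chr15:40953221-40953520 (CHAC1, plus strand), chr15:66701986-66702285 (SMAD6, plus strand) and chr4:76023448-76023747 (CXCL10, minus strand).
TXNIP: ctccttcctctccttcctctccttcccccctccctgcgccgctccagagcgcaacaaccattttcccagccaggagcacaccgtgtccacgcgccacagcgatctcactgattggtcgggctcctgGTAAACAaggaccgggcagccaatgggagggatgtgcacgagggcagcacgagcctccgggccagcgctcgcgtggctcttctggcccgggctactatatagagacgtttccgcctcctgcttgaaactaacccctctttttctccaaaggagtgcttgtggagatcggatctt
CHAC1: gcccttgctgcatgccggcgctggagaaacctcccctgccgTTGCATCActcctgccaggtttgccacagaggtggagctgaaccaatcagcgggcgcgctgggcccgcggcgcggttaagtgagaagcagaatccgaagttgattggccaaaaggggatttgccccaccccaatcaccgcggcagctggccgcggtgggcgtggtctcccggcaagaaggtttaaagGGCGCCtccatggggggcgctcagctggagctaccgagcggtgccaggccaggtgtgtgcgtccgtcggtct
SMAD6: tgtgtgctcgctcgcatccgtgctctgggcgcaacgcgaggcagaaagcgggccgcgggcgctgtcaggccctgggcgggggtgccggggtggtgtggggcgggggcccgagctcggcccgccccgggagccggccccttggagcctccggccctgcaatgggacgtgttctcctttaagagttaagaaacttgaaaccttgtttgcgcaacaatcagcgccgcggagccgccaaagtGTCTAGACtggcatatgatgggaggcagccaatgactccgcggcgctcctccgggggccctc
CXCL10: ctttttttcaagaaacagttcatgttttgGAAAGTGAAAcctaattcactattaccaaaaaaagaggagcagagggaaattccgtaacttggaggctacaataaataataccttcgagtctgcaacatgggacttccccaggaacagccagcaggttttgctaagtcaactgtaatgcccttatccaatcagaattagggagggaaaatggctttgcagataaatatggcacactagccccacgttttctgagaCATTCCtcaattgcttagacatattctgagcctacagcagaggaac

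The remaining largest rises, which ran from 1.51 to 1.98, were of mixed function. DNAH2, an axonemal dynein, went from 69 to 281 (log2 ratio 1.98), UNC5B-AS1, an antisense RNA, from 134 to 505 (1.87), RDH12, a retinol dehydrogenase, from 61 to 220.2 (1.82) and LYPD1 from 111 to 400.5 (1.81). DPP4, a cell-surface peptidase, went from 164 to 525.5 (1.63), FPR1, the formyl peptide receptor, from 293 to 934 (1.62), and KCNMB4, a potassium channel subunit, from 308 to 963 (1.60). CH25H, cholesterol 25-hydroxylase, an interferon-inducible enzyme, went from 155 to 472 (1.56). For sc siRNA over DMSO, which uses the same sc siRNA array, DNAH2 was at -1.06, KCNMB4 at -0.96, LYPD1 at 1.08 and CH25H at 2.10. There UNC5B-AS1, RDH12, DPP4 and FPR1 were at 0.36, 0.49, 0.38 and 0.19. With normexp all 15 rises stayed above 0 and 14 stayed past 2-fold, the exception being PDK4.

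The interferons IFNB1 and IFNL2 were among the largest rises. None of the 26 measured genes of the interferon-stimulated list was past 2-fold, which is near the share of all genes (1.24% higher, 0.262% lower). The list had a median signal of 10617 with sc siRNA, and 0.145% of probes with mean signals of 3000 and over were past 2-fold. IFNB1 went from 165 to 555 (log2 ratio 1.71) and IFNL2 from 411 to 1492 (1.81); the probe of its near-identical paralog IFNL3 went from 27 to 116 (2.06), and the probes may share transcripts. The DMSO and PHA665752 signals of IFNB1 were 2.6 and 3.3, not well above background, and those of IFNL2 were 51.7 and 39.5. Of those 26, 20 had ratios above 0 (47.6% of all genes did) and 3 were more than 1.5-fold higher (4.47%). The median was 0.26. IFIT2 was at 58158 and 111178 (0.89), OASL at 10327 and 19171 (0.85) and MX1 at 33218 and 48218 (0.49). The sensors of cytosolic RNA IFIH1 and RIGI were at 0.51 and 0.39, the RNA-editing enzyme ADAR was at 15331 and 10237 (-0.63), and none of 13 components of RNA interference was past 1.5-fold. The interferon-stimulated genes were already far higher with sc siRNA than with DMSO, with a median of 3.30 and 25 of 25 genes past 2-fold, where 2.13% of all genes were more than 2-fold higher and 0.546% lower. The 2 comparisons share the sc siRNA array, and whether the MET siRNA and the scrambled siRNA differ in how strongly they trigger RNA sensing was not tested.

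Transcripts of the cell cycle stayed near the median of all genes. Of 32 S phase and mitosis genes, 25 had ratios above 0 (47.6% of all genes did), with a median of 0.09. None was past 2-fold and 1, NUSAP1, was past 1.5-fold (0.63). MKI67, the proliferation marker, was at 1632 and 1805 (0.10), CDK1 at 9037 and 10804 (0.21), MCM2 at 0.09, CCNB1 at 0.03, RRM2 at -0.23 and CCNE1 at -0.37. With PHA665752, 29 of 31 were more than 2-fold lower (8% of all genes) and the median was -1.87. For sc siRNA over DMSO, which shares an array with each of these comparisons, the median was -0.51. Sterol synthesis genes had a median of 0.13 and glycolysis and hypoxia genes of -0.03, in each case with none past 2-fold; INSIG1 was at 0.61, LDHA at -0.45 and HK2 at -0.49. The 25 ribosomal protein genes lay between -0.20 (RPL5) and 0.08 (RPS3), and the 16 reference genes had a median of -0.02, with GAPDH at -0.01, ACTB at -0.22 and TFRC at -0.52.

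Among immune molecules, CD86, a ligand of CD28 and CTLA4, was past 2-fold, from 305 to 156 (log2 ratio -1.01), but within it with normexp (-0.68) and, at -0.995, when outlier-marked spots were kept or the series matrix was used. The other 18 measured co-inhibitory and co-stimulatory molecules were within 2-fold. CD274, the gene of PD-L1, was at 2096 and 1379 (-0.65), PDCD1LG2, the gene of PD-L2, at 186 and 144 (-0.42), TNFSF9, the 4-1BB ligand, at 3612 and 6441 (0.79), CD70 at 41 and 68 (0.68) and TNFSF4, the OX40 ligand, at 40.2 and 31.8 (-0.40). ULBP1, a stress ligand of the NKG2D receptor, went from 180 to 418 (1.17), or 0.79 with normexp, while ULBP2, ULBP3 and MICA were at -0.25, -0.29 and 0.12. TNFSF10, the gene of TRAIL, was at 1506 and 2929 (0.91). None of the 24 HLA and antigen processing genes was past 1.5-fold, with a median of 0.09. NF-kB feedback genes had a median of 0.27, the highest of the 29 lists, with BCL3 at 0.78, RELB at 0.68 and NFKBIA at 0.27. Of 17 measured, 14 had ratios above 0 (47.6% of all genes did), 2 were more than 1.5-fold higher (4.47%) and none was past 2-fold.

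The pair of PHA665752 and DMSO arrays shares no array with the siRNA pair and gives the same genes a second reading. In that pair, of 13008 genes with a ratio in both pairs, 11.2% were more than 2-fold higher, 8% more than 2-fold lower, and 53.8% had ratios above 0. Of the 166 genes higher with MET siRNA, 145 had a ratio there, of which 133 (91.7%) had the same direction, 107 (73.8%) were more than 2-fold higher and 0 more than 2-fold lower, with a median of 1.89. Of the 35 genes lower with MET siRNA, 28 had a ratio there, of which 18 (64.3%) had the same direction, 12 (42.9%) were more than 2-fold lower and 1 was more than 2-fold higher. Among the 15 largest rises 12 of 14 measured genes were past 2-fold the same way, and among the 15 largest falls 10 of 14. The dose and time of PHA665752 on the array were not given in the sources used here, so the sizes are set side by side only. MET itself was at -1.33 with siRNA and -0.93 with PHA665752, DUSP6 at -1.14 and -3.27, TXNIP at 1.51 and 3.66, COL1A1 at 1.54 and 3.32, KRTAP2-3 at -1.12 and -4.32, and CCN5 at 2.52 and 5.55.

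**Figure D5:**
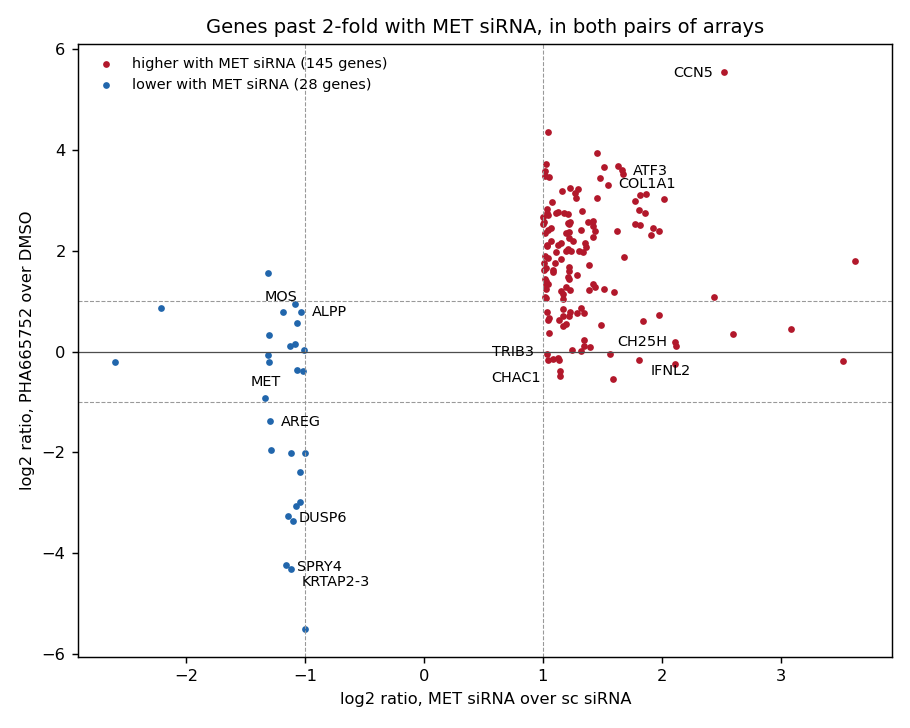
Log2 ratio of PHA665752 over DMSO (vertical) against that of MET siRNA over sc siRNA (horizontal) for the genes past 2-fold with MET siRNA and measured in both pairs (145 higher, 28 lower; 1 array per condition). Dashed lines mark 2-fold. Of the higher genes 107 are above the upper dashed line, and of the lower genes 12 are below the lower one.

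Other probes were well above background on 1 of the 2 arrays only, 1744 in the scrambled control and 270 after knockdown, and 9929 were so on neither. For these the fold is a bound, taken against the probe's own dim signal or, if that is higher, the dimmest signal marked as well above background there (10.2 in the control and 17.4 after knockdown). Bounds past 2-fold were found for 220 probes higher and 117 lower. The largest were CALR3, a calreticulin of the testis, at least 19.3-fold higher (from 2.3, not well above background, to 204), LMOD2, a leiomodin of heart muscle, at least 18.9-fold higher (5.0 to 199), and BANF2, at least 17.9-fold higher (2.3 to 189). In the other direction they were LILRB3, a leukocyte receptor, at least 16.4-fold lower (276 to 9.5), MROH9, at least 9.16-fold lower (154 to 3.7), and GPR84, at least 8.11-fold lower (137 to 3.6). Each rests on 1 probe on 1 array, and all 6 had signals of 24.5 or less with DMSO and, where usable, with PHA665752.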

How the data were processed

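Total RNA of 4 cultures was labelled with Cy3 and hybridised to Agilent human 44K (V2) arrays, 1 per condition. The deposited scanner files, made by the authors' provider with Feature Extraction (11.5.1.1 per the file headers), give the intensity of a spot after background subtraction and spatial detrending and without normalization between arrays. The series matrix they deposited, likewise an intensity, was used as an alternative. Control spots and outlier-marked spots were left out, log2 values were averaged over the spots of a probe (33128 probes had 1 spot and 999 had 10), and the 75th percentile of each array was subtracted. Probes were named through RefSeq accessions with a table of GRCh38.p14, used for names and promoters only (25767 probes, 75.5%, for 19736 genes).

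Named genes were MET, the 15 largest rises and falls with a geometric mean signal of at least 100, the 3 largest bounds in each direction, members past 2-fold of 29 hand-written gene lists (623 genes), and the largest members of each list described. Further list members, IFNL3, CCDC33 and FRMPD4 fall outside this rule and were named after seeing their values. The members and lists were chosen with earlier results of these data known. A search of promoters over all genes past 2-fold was void, since windows were found for 75.9% of the higher and 74.3% of the lower genes. Alternatives were other scalings, quantile normalization, normexp (offset 50, on median spot signals), other folds and filters, and keeping marked spots. Python 3.11.15, numpy 2.4.6, pandas 2.3.3, matplotlib 3.10.9, R 4.3.3 and limma 3.58.1 were used. The code of the ratio rule was run on simulated signals, where 200 of 200 changed probes were recovered. These were bright probes shifted by more than 2-fold with little noise, so the settings fixed that outcome. It checks the arithmetic only and does not show how reliably real changes are called.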

Additional observations from a re-analysis of the deposited data

Results flagged for a closer look

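For 7 of the 42 genes named by rule the siRNA ratio and the inhibitor ratio, each from 1 pair of arrays, had opposite signs. IFNL2 was at 1.81 with MET siRNA over sc siRNA and at -0.172 with PHA665752 over DMSO. CH25H was at 1.56 and -0.0396, MOS at -1.19 and 0.797, ALPP at -1.03 and 0.78, CHAC1 at 1.14 and -0.377, TRIB3 at 1.09 and -0.148, and CD86 at -1.01 and 0.0362 in the same order. With 1 array per condition the differences were not tested. IFNL2, CH25H, MOS, ALPP, CHAC1, TRIB3 and CD86 were at 3.25, 2.10, 1.14, 0.92, 1.33, 1.25 and 1.56 in sc siRNA over DMSO, which shares the sc siRNA array with the siRNA ratio and the DMSO array with the inhibitor ratio.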

How the results depend on the processing

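No paired analysis was possible because each condition has 1 array. None of 294 values of 42 named genes changed sign under the alternatives. These genes were picked from the same data for ratios past 2-fold, so a change of sign was unlikely from the outset. The count is therefore no measure of robustness. Against 234 probes higher and 57 lower (80.4% higher), there were 118 and 242 (32.8% higher) when arrays were scaled to the median of their own probes well above background. Those probe sets differ between the arrays. This scaling moved every log2 ratio down by the same amount and took MET from -1.33 to -1.63. With normexp there were 56 and 9, with no filter on dim probes 1181 and 773 (60.4% higher), and with signals of at least 100 on both arrays 59 and 19. At 1.5-fold there were 865 and 465 and at 3-fold 56 and 7. The 50th percentile, quantile normalization, marked spots kept and the series matrix gave counts within 1.5 times of these, from 213 to 325 higher and 52 to 65 lower. There were 261 list medians taken relative to all genes. Scaling to the 50th percentile, or to probes well above background, shifts every ratio alike and so could not change them. Under the other settings the 3 largest changes all came with signals of at least 100. These took MET neighbours to -0.0934, co-inhibitory and co-stimulatory molecules to -0.20, and the PI3K and FOXO response to 0.066. Smaller changes included the ERK list from -0.494 to -0.371 and the PI3K and FOXO response from 0.239 to 0.124, both with normexp. NF-kB feedback genes went from 0.287 to 0.171 with signals of at least 100. The causes were not tested. Signal over background limits the dim genes, and with 1 array per condition a treatment and the culture it was given to cannot be told apart.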
